A study of Mus musculus with 48 samples.

Results

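The 9 genes described here form the circuit that carries cyclic AMP (cAMP) signals to transcription: the factors Creb1, Atf1 and Crem, the coactivators Crtc1, Crtc2 and Crtc3, and the salt-inducible kinases Sik1, Sik2 and Sik3. They were chosen by name from the 50764 entries of each count table, and all 9 passed the filter on low counts in each of the 4 mouse lines. The choice was made with earlier results of these data known. Counts of members beside the share of all genes are therefore a description and no test of the 9 as a set. The mice were heterozygous for a BERKY3 allele, a biosensor for the active form of a G protein alpha subunit that is switched on by Cre recombinase, and each line is named for its subunit. Primary astroglial cells from brain came from the Gαs*-BERKY3 line (Gas), and primary lung fibroblasts from the Gαi*-, Gαq*- and Gα13*-BERKY3 lines (Gai, Gaq and Ga13).

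Every well received an adeno-associated virus (AAV2/1, CMV promoter), which carried either Cre or no insert, so the groups without biosensor were also infected. Medium was exchanged 90 min before RNA isolation for fresh medium alone (unstimulated) or with agonist. Astrocytes were given 1 µM isoproterenol, an agonist of beta-adrenergic receptors, and fibroblasts 100 µM TRAP-6, a peptide agonist of the thrombin receptor PAR1. Line, virus and stimulation gave 16 groups of 3 libraries, 48 in all. The age, sex and strain of the mice and the number of mice or cultures behind the replicates are not given in the sources used here, so p-values measure the spread between these libraries, which may be technical.

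In resting cells, the SIK kinases phosphorylate the CRTC proteins, which are then held in the cytoplasm by 14-3-3 proteins. A rise in cAMP activates protein kinase A (PKA), which phosphorylates CREB-family factors and inhibits the SIK kinases. The CRTC proteins then enter the nucleus and assist CREB at cAMP response elements (CREs). Crem and Sik1 are themselves known CRE targets. A promoter within Crem gives a short repressor, ICER, and Sik1 acts on the CRTC proteins, so both are regarded as feedback arms. Isoproterenol acts through Gas and adenylyl cyclase, whereas PAR1 couples to Gai, Gaq and Ga13.

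RefSeq promoter windows (build GRCm38.p6, 250 bases before to 50 after the start site) were matched for 6 of the 9 genes, all but Crem, Crtc2 and Sik1. They were searched on both strands for the full CRE palindrome TGACGTCA and its short form TGACG. The full form was in none of the 6 windows, against 1.79% of all 32851 windows. The short form was in 3 of the 6 (Sik2, Sik3 and Atf1), against 20.8% of all windows. These sequences are shown because they hold every match found in a member's window, with the motif in capitals (CGTCA is TGACG on the other strand).
Sik2, chr9:51009051-51009080, minus strand: gcccccTGACGtcggctcaCGTCAgcgccg
Sik3, chr9:46012570-46012819, plus strand: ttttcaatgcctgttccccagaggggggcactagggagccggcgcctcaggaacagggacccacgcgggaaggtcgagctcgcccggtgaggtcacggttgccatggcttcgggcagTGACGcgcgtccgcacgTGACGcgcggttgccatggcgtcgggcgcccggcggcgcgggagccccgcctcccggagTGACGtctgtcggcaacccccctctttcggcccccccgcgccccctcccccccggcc
Atf1, chr15:100227756-100227785, plus strand: cgtgaccacgcggTGACGcagcacgccggc

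The Sik3 window held 3 short motifs, their first bases at -133, -116 and -57 from the start site, and 1.03% of all windows held 3 or more. In Sik2, 2 motifs that face each other lay at the window's start site, with first bases at -1 and 13. Both were inside the RefSeq gene, and the 191 window bases before that gene's own 5' end held 0 matches. Of all windows, 5.01% held 2 or more. Atf1 had 1, at -90. Creb1, Crtc1 and Crtc3 had none. These matches describe letters in the windows and were not tested for binding.

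Total counts were 15.6 M to 42.6 M per library (M, 1000000; median 19.3 M), and the 9 genes had 158 to 9689 counts in any library, so for members at the low end counting error is a part of the spread between replicates. Levels are counts per M counts of the library (CPM), given as mean ± SD of 3 libraries. Response means the log2 change from unstimulated to agonist, averaged over both viruses, with its standard error (SE). Calls are genes whose p in edgeR's quasi-likelihood test, after Benjamini-Hochberg adjustment over all genes, was under 0.05. The biosensor transcript followed the virus labels, with group means of 20.2 to 132.6 CPM under Cre virus and 0.0401 to 0.725 CPM under empty virus. Summed astrocyte markers were 8858 to 9728 CPM in the Gas line and 171 to 300.1 CPM in the fibroblast lines, and summed fibroblast markers 27565 to 48156 CPM in the fibroblast lines and 1643 to 2058 CPM in the Gas line. Markers of other cell types were at 138 to 158 CPM (microglia and macrophages), 213 to 285 CPM (oligodendrocyte lineage), 94.9 to 119 CPM (neurons), 26.3 to 32.3 CPM (endothelium) and 0.65 to 1.58 CPM (mesothelium) in the Gas line. In the fibroblast lines they were at 17.2 to 112.4, 34.9 to 83.7, 0.184 to 1.59, 4.48 to 17.7 and 251 to 374 CPM. Smooth muscle and pericyte markers were at 1909 to 2429.9 CPM in the Gas line and 1704 to 3628 CPM in the fibroblast lines, and lung epithelium markers at no more than 2.02 CPM in any library. In bulk RNA, fewer cells of a type and less RNA per cell cannot be told apart.

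Isoproterenol changed 8 of the 9 genes in astrocytes: 4 rose (Sik1, Crem, Sik2 and Sik3) and 4 fell (Crtc3, Creb1, Atf1 and Crtc1), where 23.3% of all 18103 genes tested were called, 11.7% as higher and 11.5% as lower. TRAP-6 raised Crem, Sik1 and Sik2 in Gaq fibroblasts (3 of 9, against 5.61% of all genes called and 3.78% called as higher) and in Ga13 fibroblasts (3 of 9, against 8.38% and 4.69%), and no member fell in either line. In Gai fibroblasts none of the 9 was called, against 1.12% of all genes (edgeR). There, 2 had an unadjusted p under 0.05 (Crem and Sik2), and DESeq2 called 1 (Sik2). Replicates were more spread in Gai, with edgeR's common coefficient of variation at 0.0911 against 0.0649 in Gaq and 0.0678 in Ga13. A change of the same size was therefore harder to call in Gai, and no call there does not show that a response was absent.

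**Figure D1:**
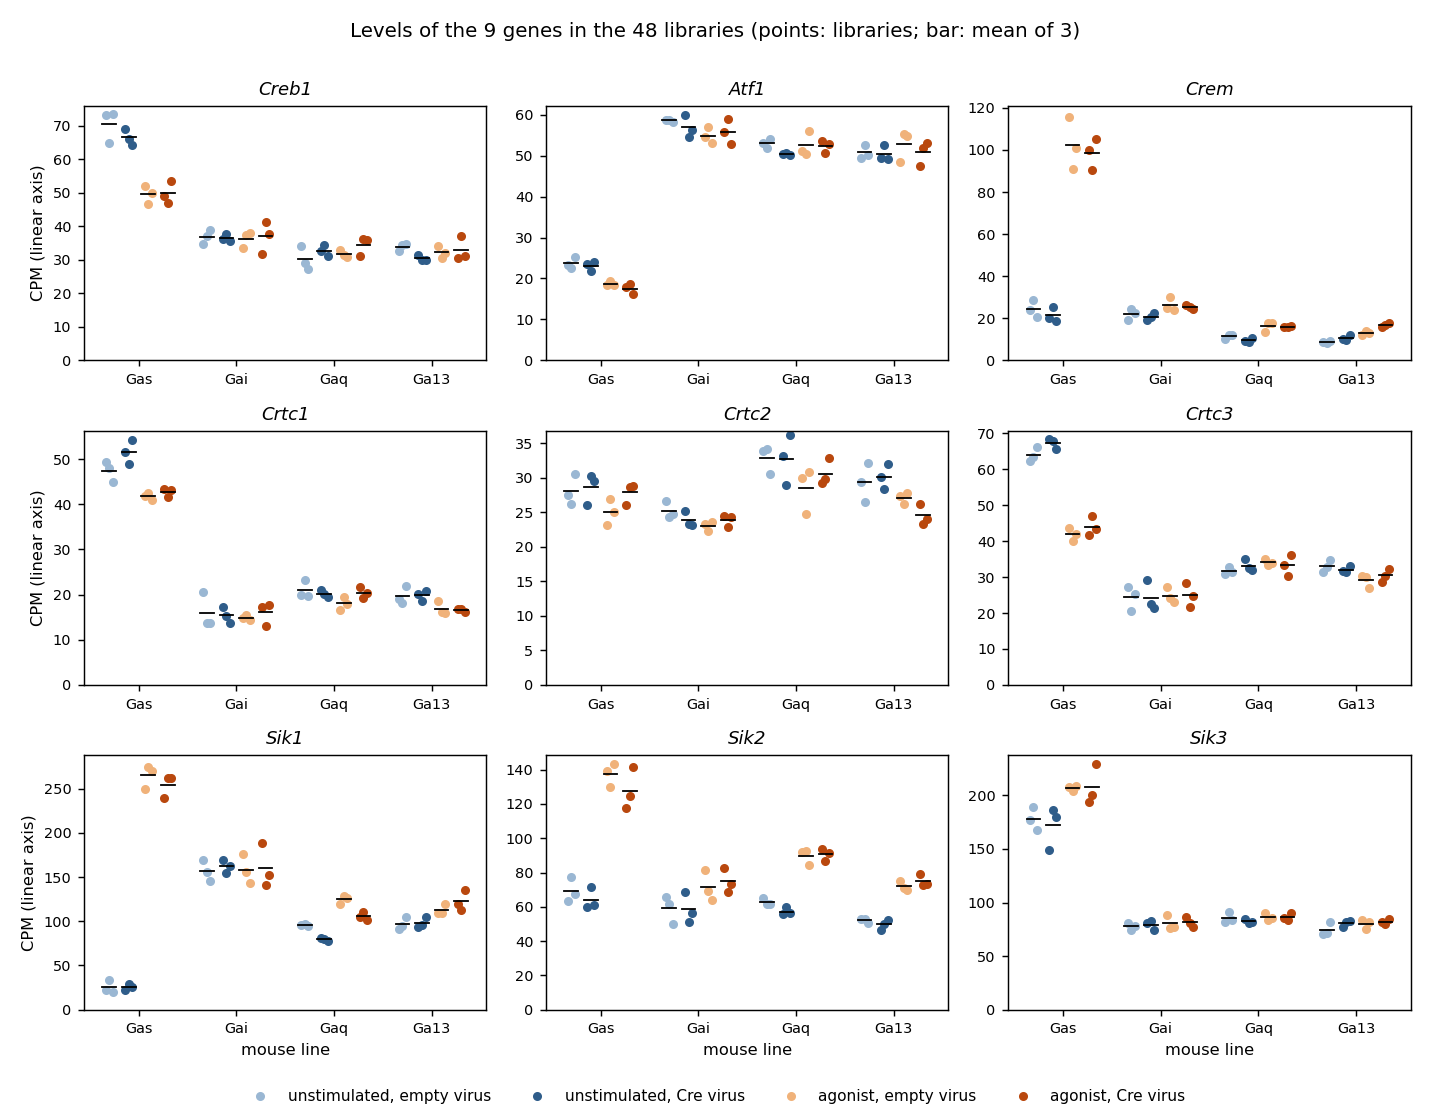
Levels of the 9 genes in every library, in CPM on linear axes that start at 0, with the 4 groups of each mouse line side by side (points, single libraries; bars, mean of 3). In the Gas line the stimulated libraries of Sik1 (239 to 275.1 CPM) and Crem (90.7 to 115.5 CPM) stand far above the unstimulated ones, and those of Creb1 and Crtc3 stand below them.

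Among the factors, Crem had the largest response. In unstimulated astrocytes with empty virus its 3 libraries held 23.8, 28.5 and 20.4 CPM, and with isoproterenol 116, 91.1 and 101 CPM. With Cre virus the values were 20.4, 25.2 and 18.7 CPM unstimulated and 100.0, 90.7 and 105 CPM stimulated. All 6 stimulated libraries lay above all 6 unstimulated ones, and the lowest of them stood at more than 3 times the highest unstimulated one. The response was 2.19 ± 0.10 (SE), a 4.57-fold rise (adjusted p = 1.4e-08, edgeR). These counts pool all Crem transcripts, ICER included.

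In Gaq fibroblasts Crem held 10.4, 11.9 and 12.2 CPM unstimulated and 13.5, 17.6 and 17.7 CPM with TRAP-6 under empty virus, and 9.17, 8.82 and 10.6 against 15.7, 15.9 and 16.3 CPM under Cre virus. The 6 stimulated libraries again stood above the 6 unstimulated ones (response 0.66 ± 0.08, adjusted p = 5.5e-07). The call under empty virus alone (0.53 ± 0.12, adjusted p = 5.7e-03) was lost without the stimulated replicate 2 or the unstimulated replicate 1 (adjusted p = 0.072 and 0.051). In Ga13 fibroblasts the values were 8.56, 8.35 and 9.18 CPM against 11.8, 14.1 and 13 CPM under empty virus, and 10.3, 9.82 and 11.9 CPM against 16.1, 16.8 and 18.0 CPM under Cre virus. Within each virus the groups did not overlap, but the highest unstimulated library (11.9 CPM, Cre virus) edged past the lowest stimulated one (11.8 CPM, empty virus). The Ga13 response was 0.66 ± 0.08 (adjusted p = 6.2e-08).

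Gai fibroblasts had 19.3, 24.2 and 22.3 CPM of Crem unstimulated and 24.8, 29.9 and 24 CPM with TRAP-6 under empty virus, and 19.2, 20.6 and 22.7 against 26.1, 25.4 and 24.3 CPM under Cre virus. The stimulated means were above the unstimulated ones for both viruses, yet the value of 0.28 ± 0.08 did not pass (adjusted p = 0.099). It passed with no filter on low counts (adjusted p = 5.4e-03) and not by DESeq2 (adjusted p = 0.051). With the replicate number as a block it also passed.

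Creb1 and Atf1, the broadly expressed activators that dimerize with each other, fell in astrocytes. Creb1 held 73.2, 64.8 and 73.5 CPM unstimulated and 52.0, 46.6 and 49.97 CPM with isoproterenol under empty virus, and its response was -0.41 ± 0.05 (adjusted p = 1.3e-08). For Atf1 the same groups held 23.3, 22.4 and 25.2 CPM and 18.5, 19.3 and 18.3 CPM, with a response of -0.32 ± 0.06 (adjusted p = 2.0e-04). Over both viruses the 6 stimulated libraries lay below the 6 unstimulated ones for each gene. Atf1's fall under empty virus alone (-0.29 ± 0.09, adjusted p = 0.026) was lost in 6 of 16 alternative fits, 5 of which left out a library. In fibroblasts neither gene was called, with Creb1 values of 0.01 to 0.11 and Atf1 values of -0.04 to 0.07 over the 3 lines. Over both viruses, stimulated and unstimulated libraries overlapped in each line. Within a single virus, Atf1 did not overlap in Gai under empty virus (stimulated lower) and in Gaq under Cre virus (stimulated higher).

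The coactivator Crtc3 had the largest fall of the 9 in astrocytes. Its libraries held 62.2, 63.3 and 66.2 CPM unstimulated and 43.5, 39.9 and 42.1 CPM with isoproterenol under empty virus, and 68.3, 67.9 and 65.5 against 41.7, 47.0 and 43.2 CPM under Cre virus. Every stimulated library was below every unstimulated one, and the response was -0.56 ± 0.05, to 0.679 of the unstimulated level (adjusted p = 3.1e-12). Crtc1 fell less, from 47.4 ± 2.29 to 41.8 ± 0.75 CPM under empty virus and from 51.6 ± 2.71 to 42.7 ± 1.04 CPM under Cre virus (n = 3 each; response -0.18 ± 0.05, adjusted p = 4.9e-03). Tested by virus, the Crtc1 change was called with Cre virus (-0.23 ± 0.07, adjusted p = 0.016) and not with empty virus (-0.13 ± 0.07, adjusted p = 0.25). The call with Cre virus was lost without the unstimulated Cre replicate 3 or the stimulated Cre replicate 2 (largest adjusted p = 0.12).

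Crtc2 was the 1 member without a call in astrocytes, at 28.1 ± 2.27 CPM unstimulated and 25.1 ± 1.89 CPM stimulated under empty virus (n = 3 each). Its response of -0.05 had a 95% interval of -0.18 to 0.07 (adjusted p = 0.61), and the libraries overlapped. In the main fits no coactivator was called in a fibroblast line. The values nearest to the threshold were in Ga13 fibroblasts, at -0.20 ± 0.07 for Crtc1 (adjusted p = 0.054) and -0.16 ± 0.06 for Crtc2 (adjusted p = 0.064). Each was called in 4 of 16 alternative fits: with the replicate number as a block, and in 3 fits that left out a library.

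Of the kinases, Sik1 had the largest response of the 9 genes. In astrocytes with empty virus it held 22.6, 33.2 and 19.4 CPM unstimulated and 249.9, 275 and 270.0 CPM with isoproterenol. With Cre virus it held 22.6, 28.7 and 26.0 CPM and 239, 262 and 262 CPM. The lowest stimulated library stood at more than 7 times the highest unstimulated one, and the response was 3.40 ± 0.12, a 10.6-fold rise (adjusted p = 2.2e-08). In both unstimulated astrocyte groups, replicate 2 had the highest Sik1, Crem, Sik2 and Sik3, and over all fits that left out 1 library or changed a setting the Sik1 response stayed between 3.32 and 3.52.

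Sik1 was higher at rest in fibroblasts and moved less. Gaq fibroblasts held 95.5, 97 and 94.3 CPM unstimulated and 119.9, 129 and 126 CPM with TRAP-6 under empty virus, and 81.0, 80.1 and 77.5 against 105, 111 and 101 CPM under Cre virus, with no overlap (response 0.44 ± 0.04, adjusted p = 9.0e-11). In Ga13 fibroblasts the values were 91.4, 94.1 and 105 against 109, 109.6 and 119.7 CPM under empty virus and 93.7, 95.4 and 105 against 119.9, 113 and 135 CPM under Cre virus. They did not overlap either (response 0.31 ± 0.04, adjusted p = 2.5e-05). The Ga13 call under empty virus alone (0.26 ± 0.06, adjusted p = 0.019) was lost on leaving out 4 of the 12 libraries, each in turn.

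Gai fibroblasts had the highest resting Sik1, at 169.9, 155 and 145 CPM unstimulated, and 176, 156 and 143 CPM with TRAP-6 under empty virus. Under Cre virus they held 169, 154 and 163 against 189, 141 and 153 CPM. The groups overlapped widely, and the value of 0.02 had a 95% interval of -0.14 to 0.18 (adjusted p = 0.97).

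Sik2 rose in the 3 lines in which Crem was called. Astrocytes held 63.5, 77.1 and 67.5 CPM unstimulated and 139, 129.97 and 144 CPM stimulated under empty virus, a response of 1.05 ± 0.06, or 2.06-fold (adjusted p = 9.9e-13). Gaq fibroblasts held 65.2, 61.6 and 61.6 against 91.8, 92.3 and 84.5 CPM (response 0.63 ± 0.04, adjusted p = 1.6e-13), and Ga13 fibroblasts 53.1, 52.6 and 50.7 against 75.3, 70.7 and 70.1 CPM (response 0.57 ± 0.04, adjusted p = 1.9e-13). In these 3 lines no unstimulated library reached a stimulated one, with either virus. Sik2 ranked 14th by p among all 15528 genes tested in Gaq fibroblasts. In Gai fibroblasts the libraries overlapped (65.9, 61.9 and 50.1 against 81.5, 69.5 and 63.9 CPM under empty virus), and the value of 0.33 ± 0.09 was not called (adjusted p = 0.15). It was called by DESeq2 (adjusted p = 0.024) and with no filter on low counts (adjusted p = 1.2e-06). With the replicate number as a block it was also called.

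Sik3, the member with the most CPM in resting astrocytes, went from 177, 189 and 168 to 208, 204 and 209 CPM under empty virus. The response was 0.29 ± 0.05, a 1.23-fold rise (adjusted p = 2.3e-04), with no overlap over both viruses (highest unstimulated 189 CPM, lowest stimulated 194 CPM). Under empty virus alone (0.28 ± 0.08, adjusted p = 0.015) the call was lost on leaving out 3 of the 12 libraries, each in turn. In fibroblasts Sik3 was between 70.4 and 91.0 CPM in all 36 libraries and was not called in any line. The Ga13 value (0.10 ± 0.04, adjusted p = 0.087) was called without replicate 3 of the unstimulated empty-virus group (0.14, adjusted p = 0.013). With the replicate number as a block the Ga13 value was also called.

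**Figure D2:**
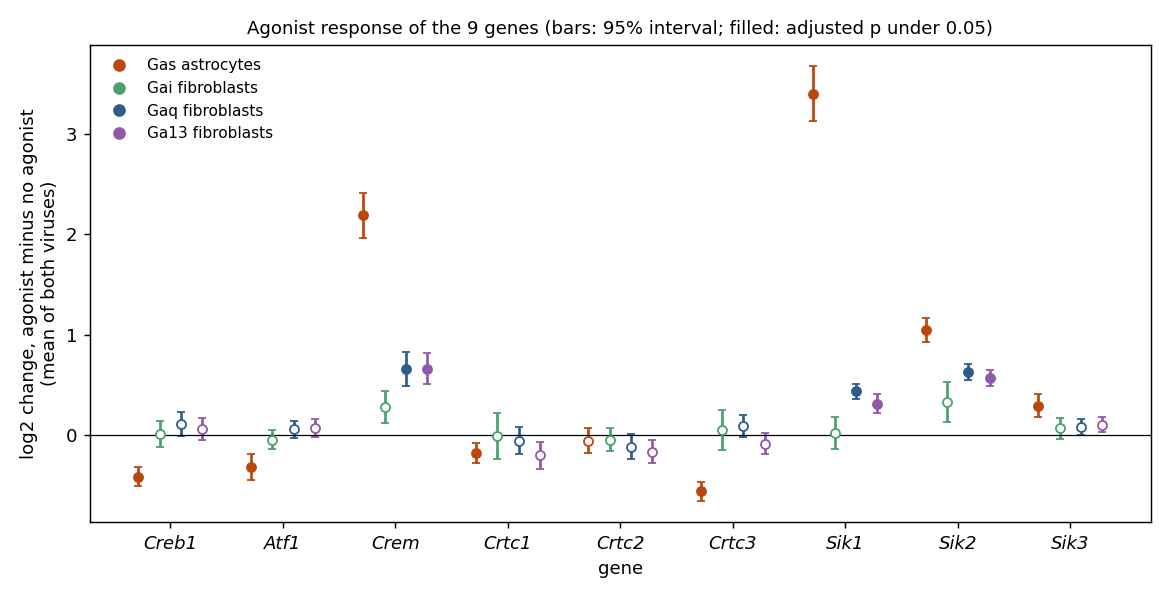
Agonist response of each gene in each line (log2, mean over both viruses; points, fitted values; bars, 95% intervals; filled points, adjusted p under 0.05). Sik1 reaches 3.40 and Crem 2.19 in Gas astrocytes, where Crtc3, Creb1, Atf1 and Crtc1 lie below 0, and in Gaq and Ga13 fibroblasts the filled points are those of Crem, Sik1 and Sik2.

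Counted over libraries, 8 of 9 members did not overlap between 6 stimulated and 6 unstimulated astrocyte libraries, all but Crtc2, against 14.7% of all genes. In Gaq fibroblasts 3 members did not overlap (against 3.09%), in Ga13 fibroblasts 2 (Sik1 and Sik2, against 5.58%) and in Gai fibroblasts none (against 1.73%). Tested by virus, 7 members were called with empty virus in astrocytes (against 14.7% of all genes) and 8 with Cre virus (against 14.3%). In Gaq fibroblasts it was 3 with each virus (against 2.65% and 3.38%), and in Ga13 fibroblasts also 3 with each (against 3.90% and 5.37%). In Gai fibroblasts no member was called with either virus (against 0.119% and 0.238%), with Crem and Sik2 at an unadjusted p under 0.05 under each virus and 0 calls by DESeq2.

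The make-up of the SIK and CREB families in astrocytes moved with isoproterenol. On a per-length scale (CPM per kilobase of exon), Sik1 made up 15.4 ± 2.8% of the summed SIK level in unstimulated astrocytes with empty virus and 58.5 ± 1.6% with isoproterenol. Sik3 went from 61.3 ± 2.7% to 25.2 ± 0.77%, although its own level rose, and Sik2 from 23.3 ± 1.2% to 16.4 ± 0.94%. The SIK sum went from 31.3 ± 3.2 to 88.3 ± 2.4 CPM per kilobase (n = 3 each).

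Within the CREB family of astrocytes, Crem went from 24.2 ± 4.2% to 64.0 ± 2.6% of the summed level under empty virus. Atf1 went from 45.6 ± 2.5% to 22.7 ± 2.3% and Creb1 from 30.2 ± 2.0% to 13.3 ± 0.40%. Fibroblasts were made up differently. Atf1 held 74.9 to 80.8% of the family in unstimulated fibroblast groups and 71.7 to 79.1% in stimulated ones. Per length, the largest coactivator share was that of Crtc2 in every group. Its means were 37.9 to 45.1% in astrocytes, where Crtc3 (36.9 to 37.0%) was close behind without agonist, and 56.7 to 61.4% in fibroblasts. All these shares divide by the length of all annotated exons of a gene, whichever transcripts are expressed, so the order depends on that scale. In CPM, Crtc2 was the lowest coactivator in unstimulated astrocytes with empty virus (28.1, against 47.4 for Crtc1 and 63.9 for Crtc3). Creb1 was above Atf1 there (70.5 against 23.7 CPM).

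**Figure D3:**
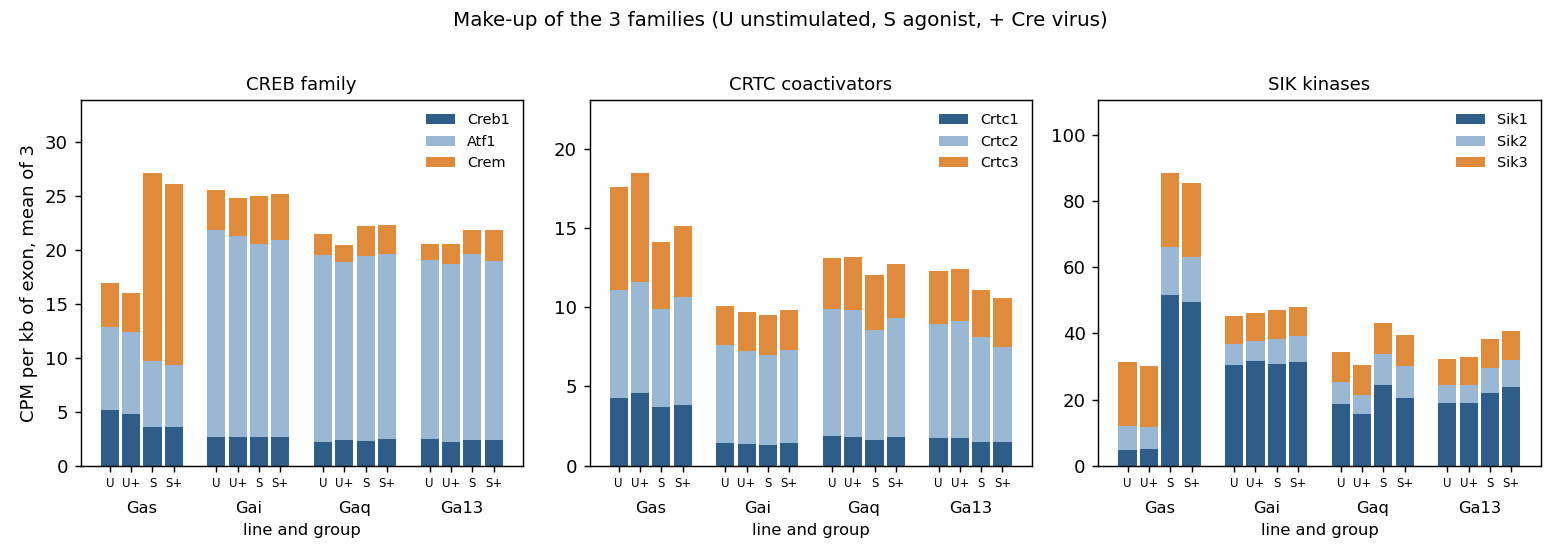
Summed level of each family per group (mean of 3 libraries, CPM per kilobase of exon, axes from 0), stacked by gene; U is unstimulated, S is agonist and + is Cre virus. In Gas astrocytes the SIK sum grows from 31.3 to 88.3 under empty virus, mostly as Sik1, and Crem becomes the largest part of the CREB family, while Atf1 is the largest part in all fibroblast groups.

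Per length, the resting order of the 9 genes differed between the cell types. In unstimulated astrocytes with empty virus Sik3 was first (19.1 ± 1.15 CPM per kilobase), followed by Atf1 (7.74 ± 0.467), Sik2, Crtc2 and Crtc3 (6.49 ± 0.209). Creb1 (5.13 ± 0.361), Sik1, Crtc1 and Crem (4.11 ± 0.694) came after them. Neighbours from Atf1 to Crtc3, and from Creb1 to Crem, differed by less than the larger of their SDs. In the same group of each fibroblast line Sik1 was first, at 30.6 ± 2.39 in Gai, 18.6 ± 0.264 in Gaq and 18.9 ± 1.39 CPM per kilobase in Ga13. Atf1 (16.6 to 19.2) and Sik3 (7.99 to 9.17) came next in all 3 lines, each step larger than the SDs of both genes.

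Resting levels also differed among the fibroblast lines. All 6 unstimulated Gai libraries had more Crem (19.2 to 24.2 CPM) than the 12 unstimulated Gaq and Ga13 libraries (8.35 to 12.2 CPM). The same held for Sik1 (145 to 169.9 against 77.5 to 104.9 CPM), Creb1 (34.8 to 39.0 against 27.4 to 34.6 CPM) and Atf1 (54.6 to 60.0 against 49.2 to 54.2 CPM), so 4 of 9 members were higher without overlap, against 7.10% of all genes. Crtc3 was lower without overlap (20.6 to 29.04 against 30.7 to 35.1 CPM), which makes 5 of 9 in either direction, against 16.6% of all genes. The gaps of Creb1 (34.8 against 34.6 CPM) and Atf1 (54.6 against 54.2 CPM) were narrow. CPM divide by the library total alone, and such narrow gaps may depend on that scale. Resting Crem and Sik1 of the Gai line also exceeded every TRAP-6-stimulated Gaq and Ga13 library (at most 18.0 and 135.4 CPM), as did 4.66% of all genes. Mouse line and cell preparation cannot be told apart, and no test was made between lines at rest. Of the 9 marker lists, 5 also differed without overlap between these unstimulated libraries. Summed microglia and macrophage markers were higher in Gai (89.2 to 112.4 CPM) than in Gaq (31.9 to 42.5 CPM) and Ga13 (17.2 to 22.1 CPM), as were endothelial markers (15.3 to 16.6 against 8.31 to 12.2 and 6.04 to 6.80 CPM). Smooth muscle and pericyte markers (2909 to 3394 against 1704 to 1819 and 2522 to 2853 CPM) and astrocyte markers (210.1 to 271 against 186 to 198 and 171 to 193 CPM) were also higher without overlap. Oligodendrocyte lineage markers were lower (35.3 to 54.6 against 65.4 to 83.7 and 75.2 to 80.3 CPM). Of the 6 genes in that list, 2 (Gai), 3 (Gaq) and 2 (Ga13) had a mean over 1 CPM. For the 9 astrocyte genes it was 6, 5 and 6. Cspg4 is in both the oligodendrocyte lineage list and the smooth muscle and pericyte list. Such sums do not show by themselves that these cell types were present. The part of the marker differences in the result was not tested.

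Whether the TRAP-6 response differed among the fibroblast lines was tested in a fit of all 36 fibroblast libraries. Between Gaq and Gai, Sik1 was the 1 member called, with a response larger by 0.42 ± 0.09 in Gaq (95% interval 0.24 to 0.59, adjusted p = 0.034, against 0.137% of 16749 genes). That call was lost in 19 of the 36 fits that left out a library (largest adjusted p = 0.10). Crem and Sik2 had an unadjusted p under 0.05 for the same difference, without a call. Between Ga13 and Gai none was called (against 0.316%), with Crem (0.38 ± 0.11), Sik1 and Sik2 at an unadjusted p under 0.05 and 1 call by DESeq2. Between Ga13 and Gaq none was called by edgeR or DESeq2 or had an unadjusted p under 0.05 (against 0%). The Crem difference there was 0.00 with a 95% interval of -0.22 to 0.22.

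The isoproterenol response of astrocytes was set against the mean TRAP-6 response of the fibroblast lines in a fit of all 48 libraries. It was larger for Sik1 by 3.15 ± 0.10, for Crem by 1.66 ± 0.09, for Sik2 by 0.54 ± 0.08 and for Sik3 by 0.21 ± 0.06. It was lower for Crtc3 (-0.58 ± 0.07), Creb1 (-0.47 ± 0.06) and Atf1 (-0.34 ± 0.05). These 7 of 9 were called (largest adjusted p = 3.8e-03), against 14.8% of all genes, and the calls held in each of 52 alternative fits. Agonist, cell type, mouse line, seeding density and virus dilution (500-fold for astrocytes and 1000-fold for fibroblasts) cannot be told apart in this difference.

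Cre virus was compared with empty virus within each line, which gives the joint effect of Cre and the biosensor, since cells with Cre and without the allele were not analysed here. Sik1 in Gaq fibroblasts was the 1 member called. It was lower with Cre virus without agonist (95.6 ± 1.36 to 79.5 ± 1.85 CPM, n = 3 each) with a log2 change of -0.26 ± 0.05 (adjusted p = 2.5e-03), against 2.65% of all genes, and Crem (-0.27) and Sik2 (-0.13) had an unadjusted p under 0.05 without a call. With TRAP-6 the log2 change was -0.23 ± 0.05 (125 ± 4.58 to 106 ± 4.78 CPM, adjusted p = 4.6e-03), against 3.41% of all genes. In each state the 3 Cre libraries lay below the 3 empty-virus libraries. The call with TRAP-6 was lost without replicate 2 of the stimulated empty-virus group (adjusted p = 0.054).

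In the other lines no member was called by edgeR or DESeq2 for Cre against empty virus. All genes were called at 0.00552% (unstimulated) and 0.0166% (agonist) in the Gas line, 0% and 0% in Gai, and 0.00632% and 0.0379% in Ga13. No member had an unadjusted p under 0.05 in the Gas and Gai lines. In the Ga13 line 2 did without agonist (Creb1 and Crem) and 1 with TRAP-6 (Crem). Ga13 Crem was 8.70 ± 0.43 CPM with empty virus and 10.7 ± 1.12 CPM with Cre virus unstimulated (0.28 ± 0.11, adjusted p = 0.97). With TRAP-6 it was 12.96 ± 1.12 and 16.9 ± 0.95 CPM (0.39 ± 0.11, adjusted p = 0.24), with no overlap in either state. In astrocytes the 95% intervals for Cre against empty virus without agonist were -0.33 to 0.48 for Sik1 and -0.50 to 0.18 for Crem.

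A difference of the response between viruses was called for no member by edgeR or DESeq2 in any line, and 0 members had an unadjusted p under 0.05. All genes were called at 0% in the Gas and Gai lines, 0.161% in Gaq and 0.0821% in Ga13. The member with the largest value in the Gaq line was Crem, where the response was 0.53 ± 0.12 with empty and 0.79 ± 0.12 with Cre virus.

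**Figure D4:**
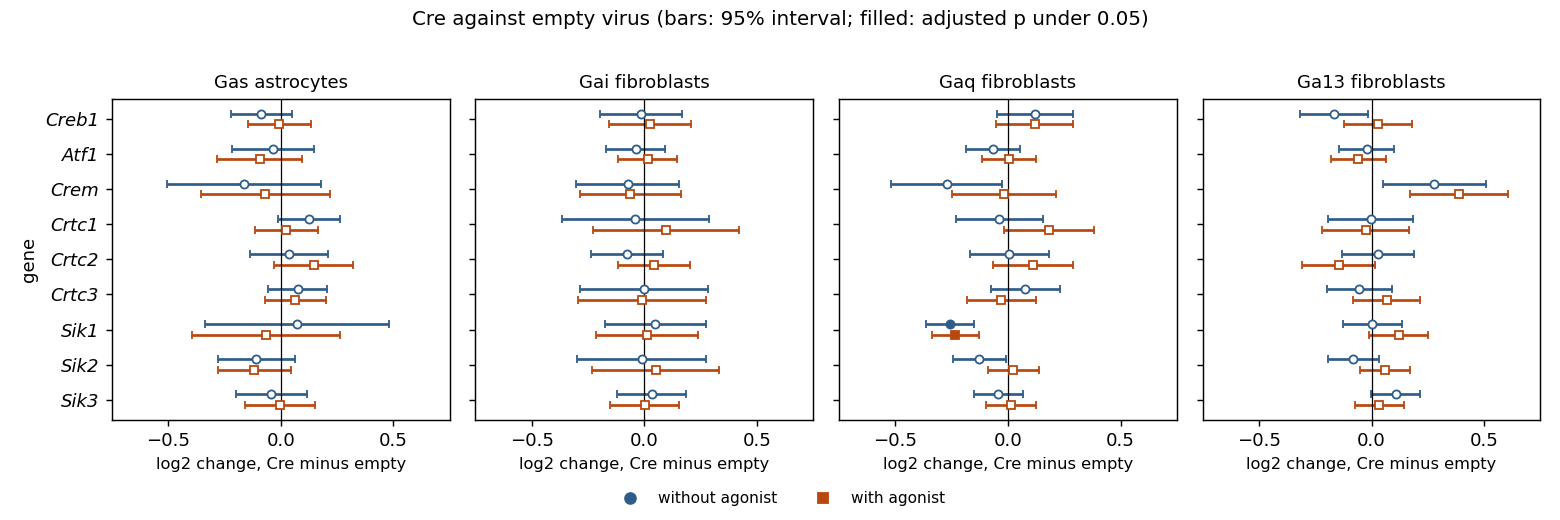
Log2 change from empty to Cre virus for each gene and line, without agonist (circles) and with agonist (squares), with 95% intervals; filled marks have an adjusted p under 0.05. The 2 filled marks belong to Sik1 in Gaq fibroblasts, at -0.26 and -0.23.

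Around the 9 genes, 5 lists of pathway genes were counted, all chosen with earlier results of these data known. The counts are therefore a description and no test of the lists. Their counts stand beside the share of all genes called in the same comparison: in the mean response 11.7% higher and 11.5% lower in astrocytes, and in either direction 1.12% in Gai, 5.61% in Gaq and 8.38% in Ga13. Known CRE target genes moved most. In astrocytes 18 of 19 tested rose and 1 fell, with a median response of 2.11 against -0.0037 for all genes. Fos, an immediate early factor, rose by 2.81 ± 0.05, Rgs2, an inhibitor of G protein signalling, by 2.12 ± 0.04, and Dusp1, a MAP kinase phosphatase, by 2.07 ± 0.04. The 1 that fell was the clock gene Per2 (-0.75 ± 0.06, adjusted p = 3.9e-13), named after its value was seen. Per2 rose in Gaq and Ga13 fibroblasts, by 0.41 ± 0.08 and 0.45 ± 0.06, and its Gai value of 0.12 ± 0.33 was not called (adjusted p = 0.97).

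In fibroblasts the CRE target list counted 12 rises and no falls of 17 in Gaq (median 0.59, against 5.61% of all genes called), 11 rises and no falls of 17 in Ga13 (median 0.45, against 8.38%) and 4 rises and no falls of 17 in Gai (median 0.26, against 1.12%). The Gaq response of Dusp1 was 0.60 ± 0.04 and its Ga13 response 0.77 ± 0.03, and for Bdnf, a neurotrophin, the values were 0.39 ± 0.04 and 0.45 ± 0.03, all rises. In Gai the called genes with the smallest p were the nuclear receptors Nr4a3 (0.38 ± 0.05, adjusted p = 8.8e-04) and Nr4a2 (0.79 ± 0.11, adjusted p = 6.1e-03), and Fosb (0.58 ± 0.09, adjusted p = 6.2e-03).

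The genes that act on CRTC and SIK proteins changed in both directions. In astrocytes 8 of 24 rose (against 11.7% of all genes) and 3 fell (against 11.5%). Hdac5, a class IIa histone deacetylase and SIK substrate, rose by 0.90 ± 0.04, and Stk11 (LKB1), the kinase that activates SIK kinases, by 0.70 ± 0.04. Hdac7, another class IIa deacetylase, fell (-0.86 ± 0.09, adjusted p = 2.3e-06, named after its value was seen). Trib2, a pseudokinase that works with the ubiquitin ligase Cop1, fell by 0.77 on the log2 scale (SE 0.04). Trib2 also fell in all 3 fibroblast lines, with values of -0.57 ± 0.06 in Gai, -0.52 ± 0.06 in Gaq and -0.63 ± 0.05 in Ga13. Stk11 was not called in any of them (0.01, 0.01 and -0.01). Trib1 rose in Gaq (0.41 ± 0.04) and Ga13 (0.50 ± 0.03) and fell in astrocytes (-0.55 ± 0.04, named after its value was seen), and Hdac5 rose by 0.18 ± 0.04 in Gaq. The list counted 3 rises and 2 falls of 24 in Gaq (against 5.61% of all genes called), 5 and 3 in Ga13 (against 8.38%), and 0 and 1 in Gai (against 1.12%).

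Among PKA subunits and inhibitors, 2 of 9 were called in astrocytes, a share near the 23.3% of all genes. Both rose, the regulatory subunits Prkar2a (0.45 ± 0.04, adjusted p = 2.7e-11) and Prkar1a (0.10 ± 0.03, adjusted p = 0.020). The Prkar1a call was lost without replicate 3 of the unstimulated Cre group (adjusted p = 0.072). None was called in fibroblasts, of 8 or 9 tested per line. Of CREB coactivators and other CREB kinases, 1 of 12 rose and 2 fell in astrocytes, also a share near that of all genes: the kinase Rps6ka2 (0.25 ± 0.05), the calcium-dependent kinase Camk2g (-0.48 ± 0.04) and the acetyltransferase Ep300 (-0.17 ± 0.05). Ep300 also fell in Ga13 (-0.16 ± 0.04), the 1 call of this list in fibroblasts (1 of 12, against 8.38% of all genes).

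Of 14 other CREB and ATF factors tested in astrocytes, 3 rose (against 11.7% of all genes) and 4 fell (against 11.5%). Creb5 rose by 0.34 ± 0.06 and the stress-induced Atf3 by 0.23 ± 0.06, and Atf7 gave -0.18 ± 0.05, a fall. In fibroblasts Atf3 rose in all 3 lines, by 0.63 ± 0.11 in Gai, 0.72 ± 0.04 in Gaq and 0.80 ± 0.04 in Ga13, and Creb5 rose in Gaq (0.60 ± 0.13) and Ga13 (0.91 ± 0.14). The Gai call of Atf3 was lost without replicate 3 of the stimulated empty-virus group (adjusted p = 0.054). Creb3l2 fell in Ga13 (-0.14 ± 0.03), and a small rise of Atf6 in Gaq (0.12 ± 0.03) was lost on leaving out 10 of the 12 libraries, each in turn. The list counted 1 rise and no falls of 15 in Gai (against 1.12%), 3 and no falls in Gaq (against 5.61%), and 3 rises and 1 fall in Ga13 (against 8.38%).

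**Figure D5:**
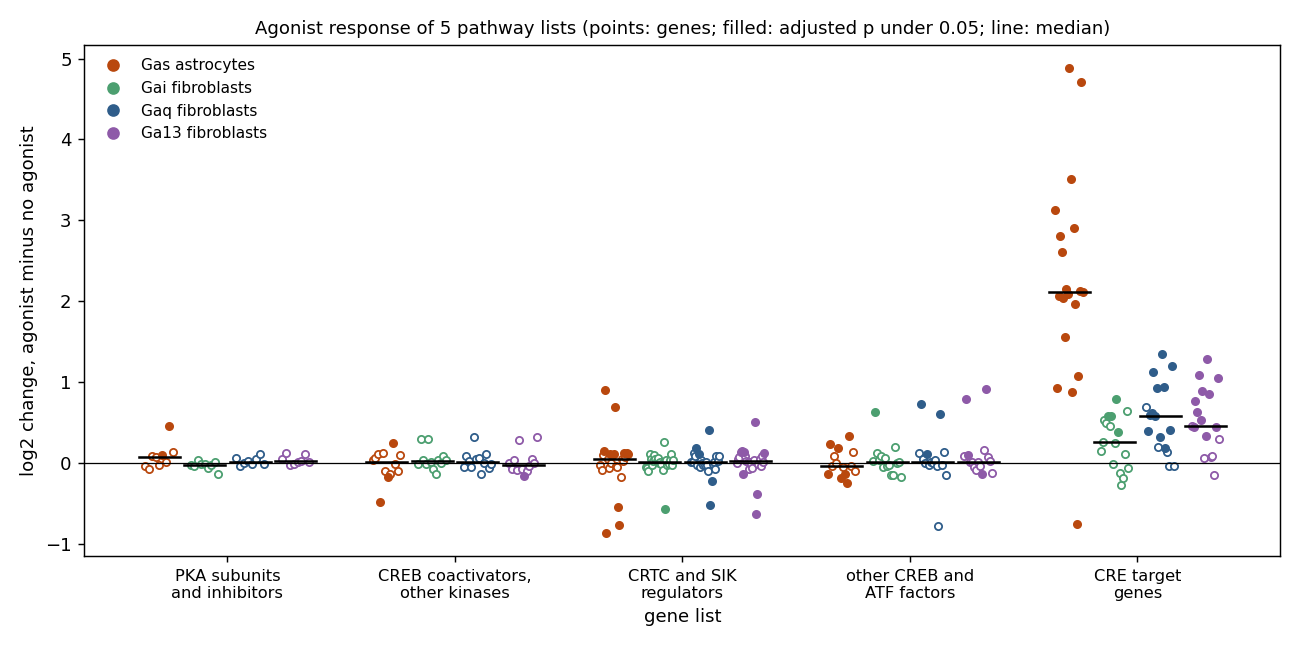
Agonist response (log2, mean over both viruses) of every tested gene of the 5 lists in the 4 lines (points, genes; filled, adjusted p under 0.05; lines, list medians). CRE target genes have medians of 2.11 in Gas astrocytes, 0.26 in Gai, 0.59 in Gaq and 0.45 in Ga13 fibroblasts, and the other lists centre near 0.

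The pattern of each gene over the 16 group means of log2 CPM, centred within each line, was compared with those of 12484 genes by Pearson's r, as a description. The 16 points share 4 lines, and the Gas line has the widest range. Most like Crem were the CRE targets Nr4a2 and Nr4a3 (r = 0.989 each), followed by Arl5b, Gdnf and Prkar2a. For Sik1 they were Fem1b (0.997), Nup98, Ndel1, Zswim6 and Slc3a2. Usp2 (0.991), Cited2, Irs2, Tiparp and Homer1 were most like Sik2, and Crem itself (0.981) was most like Sik3, ahead of Map9, Tchh, Dusp1 and Gem. For the members that fell, the nearest were Dnmbp (0.969), Mlxip, Asxl1, Ralgds and Slf2 for Crtc3, and Zfp267 (0.959), Crybg3, Mybl1, Rc3h1 and Cggbp1 for Creb1. For Atf1 they were Traf5 (0.973), Map3k8, Tgfb1i1, Lmod1 and Ppp4r1, and for Crtc1 Alyref2 (0.948), Mcm9, Ehmt1, Rgs12 and Pdp2.

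Within the 9 genes, Crem and the SIK kinases varied together. Centring leaves only the differences between the groups of a line, so genes that rise with agonist correlate, and no background r was computed. Crem had r = 0.95 with Sik1, 0.94 with Sik2 and 0.98 with Sik3 over 16 groups. Over the 12 fibroblast groups the values were 0.88, 0.93 and 0.93, although Sik3 was not called in any fibroblast line. Crtc3 ran opposite to Sik1 over 16 groups (r = -0.93) but not over the 12 fibroblast groups (0.11). Crem and Crtc2 had r = -0.49 over 16 groups and -0.82 over the 12 fibroblast groups.

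For 2 members an exon overlap with a gene on the opposite strand limits the values, since the strand setting of the counting is not given. Crem shares 8.01% of its exon length with Gm6225, which rose by 2.49 ± 0.25 in astrocytes at a mean of 1.86 CPM, and Sik2 shares 14.98% with Ppp2r1b, which rose by 0.24 ± 0.05 there and was not called in fibroblasts. Reads of such pairs cannot be told apart without strand. Of the list genes named here, Atf7, Bdnf, Creb5, Dusp1, Ep300, Hdac5, Hdac7, Irs2 and Stk11 also share exon bases with another gene. Other genes of the lists do so too.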

How the data were processed

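Messenger RNA of 48 libraries was sequenced after purification with poly-T beads, per the labels' protocols. The submitters' processing notes name fastp, Subread, featureCounts and the GRCm39 build, with no versions, annotation or strand setting. The deposited values are raw read counts per gene, as the authors' 4 tables (1 per mouse line) give them, and only whole numbers were found in them. All 50764 entries had gene symbols, and every column matched 1 sample.

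Each line (12 libraries) was fitted with edgeR 4.0.16 in R 4.3.3: TMM factors, low counts removed by filterByExpr, 1 mean per group, robust quasi-likelihood F test, and Benjamini-Hochberg adjustment over all genes tested, with 6 contrasts per line. Differences among fibroblast lines were fitted on 36 libraries, and the difference between astrocytes and fibroblasts on 48. The scripts were tested on simulated counts. CPM use the library total. Exon lengths come from a GENCODE annotation of GRCm38, a different build from the counts, and serve the per-length scale only. Alternatives were RLE size factors, DESeq2 1.42.0, no filter on low counts, the replicate number as a block, and leaving out each library.

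All 9 members are named. From each of 5 pathway lists, up to 3 called genes with the smallest p in a line's mean response are named, and for each member called in a mean response the 5 genes most like it. The members and lists were chosen with earlier results of these data known. The main fits take the replicate numbers as names, not pairs, since the labels do not say that they pair the libraries. Same-numbered libraries had a correlation of deviations over 0.1 in 1 of 18 pairs in Gas and 8 of 18 in Gai. In Gaq and in Ga13 it was 0 of 18. A library correlated best with its own number in 10 of 12 cases in Gas, 4 in Gai, 8 in Gaq and 11 in Ga13. If the numbers meant nothing, about 4 of 12 would be expected, as in Gai, and the other lines stood above that. No test of this was made. These values do not settle whether the numbers are pairs, so the block is given as an alternative.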

Additional observations from a re-analysis of the deposited data

Results flagged for a closer look

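The results here are differences between responses in 2 sets of libraries, each called in a test of the difference itself by edgeR. The TRAP-6 response of Sik1 was larger in Gaq than in Gai fibroblasts by 0.42 ± 0.09 (SE, log2; adjusted p = 0.034, n = 12 libraries per line), and this call was lost in 19 of 36 fits that left out a library.

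The other 7 set the isoproterenol response of Gas astrocytes against the mean TRAP-6 response of the fibroblast lines. The difference was 3.15 for Sik1, 1.66 for Crem, 0.54 for Sik2 and 0.21 for Sik3. It was -0.58 for Crtc3, -0.47 for Creb1 and -0.34 for Atf1. Agonist, cell type, mouse line, seeding density and virus dilution cannot be told apart in these values.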

How the results depend on the processing

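All 8 calls in the mean isoproterenol response of astrocytes held with the same direction in all 16 alternatives. So did those of Crem, Sik1 and Sik2 in the mean TRAP-6 response of Gaq and Ga13 fibroblasts. No called value of a member, nor of a list gene named by the rule, reversed in any alternative. The signs of values far from a call were not followed. In Gai fibroblasts 0 members were called in the mean response, but DESeq2 called 1 (Sik2), the fit with no filter 2 and the replicate block 2 (Crem and Sik2). With empty virus there, and also with Cre virus, no filter and the replicate block each called 1 (Sik2). In Ga13 fibroblasts the replicate block called 6 in place of 3 (adding Crtc1, Crtc2 and Sik3), and leaving out a library gave 3 to 5, with 5 without replicate 2 of either unstimulated group. For Gaq against Gai, 1 became 2 with no filter and 3 with the block, and 0 to 1 without a library. For Ga13 against Gai, 0 became 1 with DESeq2, 1 with no filter (Sik1), 3 with the block (Crem, Sik1 and Sik2), and 0 to 1 without a library, with 1 without replicate 1 of either stimulated Gai group. For Cre against empty virus with TRAP-6 in Gaq, leaving out a library gave 0 to 1. The cause was not tested. The block changed no other count of members by over 1.5 times.

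Leaving out a library gave 5 to 7 members with empty and 7 to 8 with Cre virus in astrocytes, 2 to 3 with empty virus in Gaq, and 2 to 4 with empty and 3 to 4 with Cre virus in Ga13. DESeq2 called 4 in Ga13 with Cre virus. Over all genes, the mean response in Gai had 179 calls, 293 by DESeq2 and 797 with the block. It was 19, 86 and 254 with empty virus and 38, 120 and 355 with Cre virus, and no filter gave 445, 133 and 202. With the block, Gaq went from 411 to 763 (empty-virus response), from 411 to 752 and from 529 to 944 (Cre against empty virus without and with agonist), and from 25 to 91 (difference of responses, 41 by DESeq2). Ga13 went from 851 to 1357 (Cre-virus response), from 1 to 33 and from 6 to 112 (Cre against empty virus, 6 and 29 by DESeq2), and from 13 to 138 (difference of responses, 57 by DESeq2). Gaq against Gai went from 23 to 161 (47 by DESeq2) and Ga13 against Gai from 53 to 288 (96 by DESeq2). Leaving out a library moved the all-gene counts to 10 to 37 and 15 to 65 in Gai (empty and Cre virus) and to 261 to 491 and 333 to 577 in Gaq, where Cre virus had 525. For Cre against empty virus without and with agonist they moved to 262 to 523 and 283 to 642 in Gaq, 0 to 4 and 2 to 13 in Ga13, and, from 1 and 3, to 1 to 4 and 0 to 3 in Gas. The differences of responses moved to 7 to 43 in Gaq and 3 to 22 in Ga13, Gaq against Gai to 5 to 49 and Ga13 against Gai to 33 to 104. With no filter the differences of responses had 67 calls in Gaq and 86 in Ga13, Ga13's Cre comparisons 33 and 62, and the comparisons with Gai 57 and 121. A library correlated best with its own number in 10 of 12 cases in Gas, 4 in Gai, 8 in Gaq and 11 in Ga13, which is a hint from the data and not from the design.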
